A study of Mus musculus with 12 samples.

Results

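The genes studied here were 10 of the 22519 genes counted at both stages of a single-cell RNA survey of mouse liver, chosen by symbol as the coagulation factor genes and their closest partners. They encode the 3 chains of fibrinogen (Fga, Fgb and Fgg), prothrombin (F2), factors VIII, IX and X (F8, F9 and F10), antithrombin (Serpinc1), plasminogen (Plg) and kininogen (Kng1). All 10 were listed at both stages and had counts in every library.

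Livers were taken from embryos (stage E16.5) and newborn pups (stage P3, in days after birth) that were Jag1+/+, Jag1Ndr/+ or Jag1Ndr/Ndr, all bred from Jag1Ndr/+ parents. The Nodder allele (Ndr) is a germ-line missense change in Jag1, the gene of a membrane protein that binds Notch receptors. The cells were dissociated with enzymes, depleted of dead cells on magnetic beads and processed in droplets, with TrypLE Express added to the digestion at E16.5 only. Homozygous P3 pups were recognised by jaundice.

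The 12 labelled samples reduced to 9 libraries. At E16.5 these were, in the order used throughout, replicate 1 of Jag1+/+, then a shared library deposited identically as replicate 2 of Jag1+/+ and of Jag1Ndr/+, then replicate 1 of Jag1Ndr/+, and last both Jag1Ndr/Ndr replicates. At P3, libraries A and B were present under conflicting genotype labels, library C had only the Jag1Ndr/Ndr label and library D only the Jag1Ndr/+ label. Stage labels never conflicted. The 9 libraries shared at most 0.940% of the smaller one's barcodes. They held 15024 to 29034 passing barcodes, with medians of 5325 to 9256 unique molecular identifiers (UMIs, counted RNA molecules) per barcode at E16.5 and 2961 to 6235 at P3. Stage coincided with the digestion, the version of the counting software and the gene list, so these cannot be told apart from age. The mix of genotype labels also differed between the stages. Barcodes of library A occurred under Jag1+/+ and Jag1Ndr/Ndr labels, and those of library B under Jag1+/+, Jag1Ndr/+ and Jag1Ndr/Ndr labels. No P3 library had only the Jag1+/+ label, so genotype cannot be fully told apart from stage either. Per the design text each stage and genotype had 2 animals, but with the conflicting labels it is not known how many animals the P3 libraries came from, so p-values measure the spread between these libraries, which may in part be technical.

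Fibrinogen is the soluble precursor of the fibrin clot, and thrombin, released from prothrombin by factor Xa, cuts it. Factor IXa with its cofactor VIIIa activates factor X, antithrombin inhibits thrombin and factor Xa, and plasmin, made from plasminogen, dissolves fibrin. Hepatocytes are the known source of most of these plasma proteins, while factor VIII is known to come from endothelial cells. C/EBP and HNF1 are transcription factors of the hepatocyte that are known to act on fibrinogen promoters.

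The fibrinogen promoters are shown because the 3 genes lie side by side on chromosome 3, yet only Fgb rose between stages in hepatocyte-like cells. The promoter of F9 is shown because F9 had the largest stage change among the 10 genes in these cells. In GENCODE M21 (GRCm38), Fgg spans chr3:83007724-83015049 and Fga chr3:83026076-83033627, both on the + strand, and Fgb spans chr3:83040141-83049863 on the - strand. RefSeq (GRCm38.p6) listed a promoter for 8 of the 10 genes, not for Plg and Kng1. Capitals mark the C/EBP motif (TTGCNNAA or TTNNGCAA) and the HNF1 half-site motif (GTTAAT or ATTAAC). Each was searched on both strands in the 250 bases before the RefSeq start.
Fgb, chr3:83049864-83050113 (- strand): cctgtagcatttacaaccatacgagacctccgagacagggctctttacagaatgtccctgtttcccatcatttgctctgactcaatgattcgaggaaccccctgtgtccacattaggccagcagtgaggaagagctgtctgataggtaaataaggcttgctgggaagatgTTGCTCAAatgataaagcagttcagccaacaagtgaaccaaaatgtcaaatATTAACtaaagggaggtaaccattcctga
Fga, chr3:83025903-83026075 (+ strand): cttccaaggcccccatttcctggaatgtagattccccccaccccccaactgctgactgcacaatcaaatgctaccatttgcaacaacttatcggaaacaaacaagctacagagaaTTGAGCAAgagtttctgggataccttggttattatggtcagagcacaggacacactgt
Fgg, chr3:83007474-83007723 (+ strand): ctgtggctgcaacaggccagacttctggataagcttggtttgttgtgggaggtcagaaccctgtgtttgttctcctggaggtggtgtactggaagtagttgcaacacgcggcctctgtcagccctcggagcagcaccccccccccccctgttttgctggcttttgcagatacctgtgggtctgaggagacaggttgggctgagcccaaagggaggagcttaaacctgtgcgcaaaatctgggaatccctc
F9, chrX:59999214-59999463 (+ strand): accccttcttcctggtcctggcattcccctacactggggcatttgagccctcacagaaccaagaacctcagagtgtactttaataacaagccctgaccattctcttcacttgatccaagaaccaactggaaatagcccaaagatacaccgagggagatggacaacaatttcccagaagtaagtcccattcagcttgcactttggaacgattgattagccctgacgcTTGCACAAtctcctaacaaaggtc
Fga HNF1 window, chr3:83026098-83026127 (+ strand): ccaagggtgatgATTAACctcctgccggtt
The stretches end where the GENCODE gene begins, so the HNF1 half-site match of Fga, 43 bases before the RefSeq start, is given as a window of its own. Fga and Fgb each held 1 match to both motifs, F9 held 1 to C/EBP, and Fgg held none. F2, F8, F10 and Serpinc1 held none either. Of 32851 RefSeq promoter windows of 250 bases, 6.43% held the HNF1 half-site letters and 9.56% the C/EBP letters. A match describes the letters only.

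Cells were assigned to classes by clustering with the coagulation genes left out. The hepatocyte-like class held 673 cells at E16.5 (87, 217, 126, 98 and 145 per library, in the order given above) and 184 at P3 (77, 23, 39 and 45 in libraries A to D). The 11 hepatocyte markers, from which the class was named, made up 13.5 to 18.9% of its UMIs before birth (E16.5) and 13.7 to 19.2% after it (P3). In erythroid cells they made up 0.130 to 0.223% and 0.0228 to 0.0517%. All 11 were detected in both classes in every library, so their detection does not tell the classes apart. The other 3 clusters with hepatocyte names had less albumin (Alb) RNA and were kept apart as mixed clusters. In 1 at E16.5 (4123 cells) and 1 at P3 (1187 cells) globin made up 51.2 and 48.5% of UMIs. The remaining P3 cluster (135 cells) had 2.98% globin, and the neutrophil genes Retnlg and Mmp8 were among its leading genes. At P3 only, an unnamed class (9.88 to 15.9% of the cells kept per library) held clusters that the markers did not name. Its cluster of 3457 cells was led by Mt2, Car1 and Mt1, as was a cluster named erythroid under coarser clustering (Leiden resolution 0.5). Its cluster of 4545 cells was led by Igkc and Ms4a1. Whether the erythroid and B classes hold the same cells at both stages was not tested. Levels are given as CPM, a gene's UMIs scaled to a common total for a library's cells of a class, and are compared for 1 gene across libraries or classes, not between genes. With summed RNA of cells that were sampled unevenly, a level describes the cells recovered.

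Of the 10 genes, 7 rose from E16.5 to P3 in hepatocyte-like cells, 0 fell and 3 did not pass the test (edgeR quasi-likelihood test, 5 against 4 libraries, Benjamini-Hochberg adjusted p under 0.05). Over all 9656 genes tested, 37.3% passed, 19.1% as higher and 18.2% as lower. The median log2 change of the 10 genes was 1.08, against -0.03 over all genes. Log2 changes were fitted with the scaling of edgeR (TMM), so they differ from ratios of mean CPM. Those ratios of P3 over E16.5 were 1.43 for F2, 0.857 for Fga and 0.931 for Fgg. The 7 genes that rose were also those whose stage ranges did not overlap. These ranges come from the same libraries as the test and add no support to it. The share of all genes without overlap in hepatocyte-like cells was not counted. In these cells the Alb level went the other way, from 63763 ± 8135 CPM (SD, n = 5) to 28294 ± 5006 (SD, n = 4), and so did that of the fetal gene Afp, from 41670 ± 11517 to 14874 ± 3294 CPM. Globin RNA made up 4.86 to 7.90% of their UMIs at E16.5 and 0.611 to 1.98% at P3, and mitochondrial RNA 7.08 to 8.48% and 7.26 to 10.2%. The part of these differences in the result was not tested beyond leaving out the globin genes, under which the same number of the 10 genes passed.

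**Figure D1:**
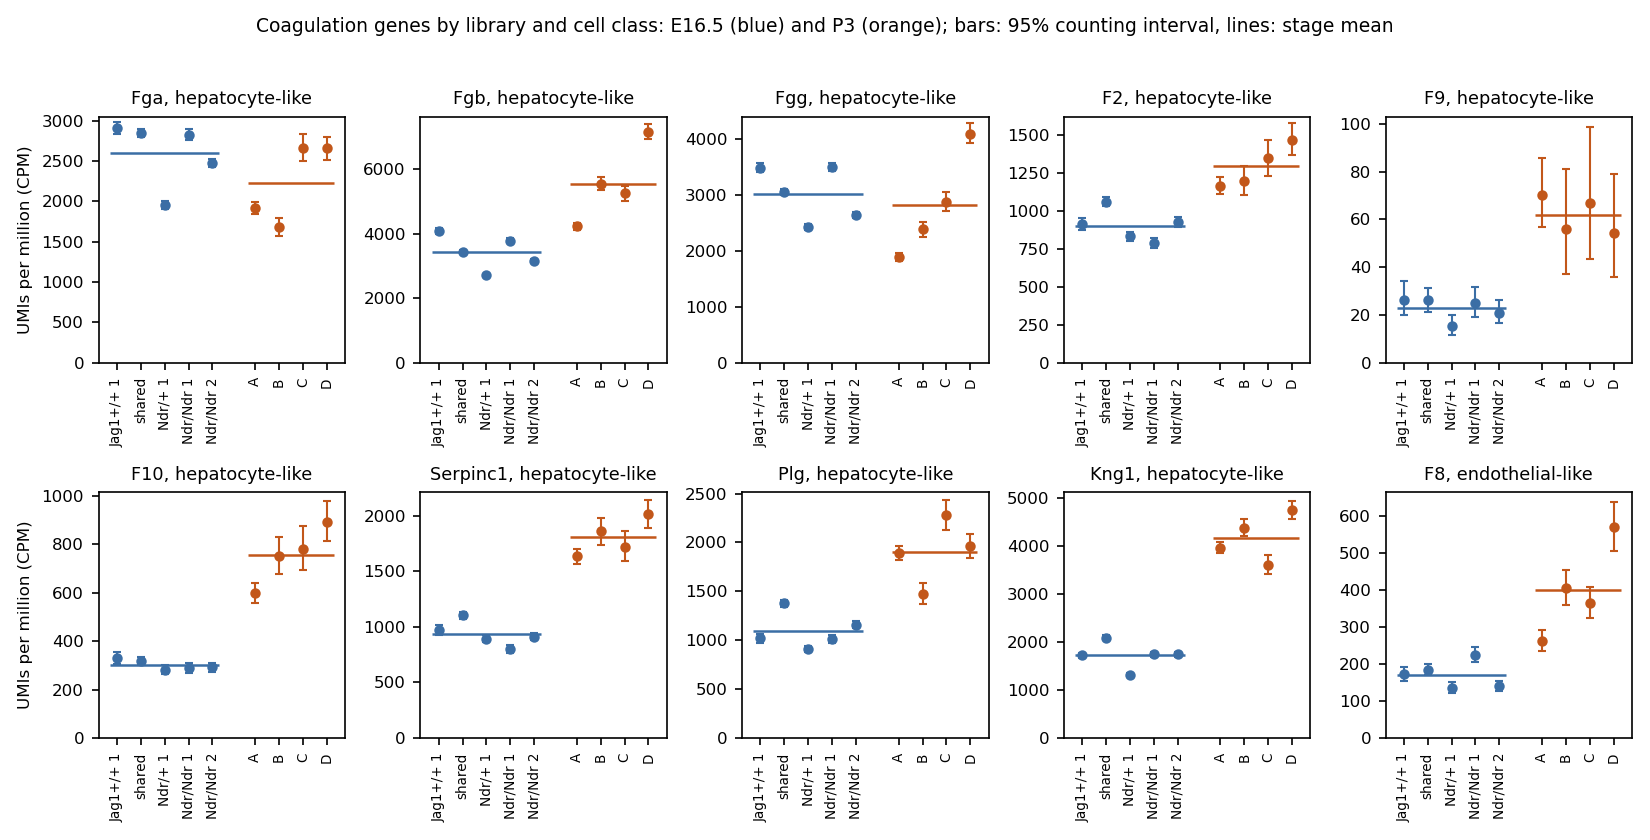
Level of each gene per library (CPM; linear axes from 0), in hepatocyte-like cells for 9 genes and in endothelial-like cells for F8. Points are libraries with their 95% counting interval and lines are stage means; the E16.5 and P3 points separate in all panels except Fga and Fgg.

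Fgb was the 1 fibrinogen gene that rose. In the order of libraries given above, Fgb stood at 4088, 3448, 2712, 3789.6 and 3162 CPM at E16.5 and at 4228, 5558, 5264 and 7166 CPM in P3 libraries A to D. All 4 P3 libraries lay above all 5 E16.5 libraries, by the least in library A. The fitted log2 change of Fgb was 0.94 (SE 0.17, edgeR adjusted p = 0.000654).

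Fga, the gene of the chain that carries the first peptide cut by thrombin, showed no such shift. Its levels were 2909, 2852, 1955, 2829 and 2474 CPM at E16.5 and 1915, 1683, 2664 and 2659 CPM at P3. The ranges overlapped, with libraries A and B lowest. The log2 change of Fga was 0.03 (SE 0.19, edgeR adjusted p = 0.934). Fgg stood at 3488, 3057, 2431, 3508 and 2642 CPM at E16.5 and at 1896, 2388, 2883 and 4101 CPM at P3. For Fgg the P3 libraries lay on both sides of the E16.5 range, and the log2 change was 0.15 (SE 0.21, edgeR adjusted p = 0.614). Total fibrinogen RNA was 9069 ± 1389 CPM (SD, n = 5) at E16.5 and 10601 ± 2490 (SD, n = 4) at P3.

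The balance of the 3 chains' RNA was compared between libraries as each gene's share of the 3 genes' UMIs. The size of a share depends on how well each gene's RNA was captured, so only its change between libraries is read. The Fgb share rose from 37.9 ± 0.822% (SD, n = 5) to 52.6 ± 3.78% (SD, n = 4). It was 39.0, 36.8, 38.2, 37.4 and 38.2% in the E16.5 libraries and 52.6, 57.7, 48.7 and 51.5% in libraries A to D. The Fga share fell from 28.7 ± 1.36% to 21.3 ± 3.51%, and the Fgg share fell from 33.3 ± 1.12% to 26.1 ± 2.56%. For no chain did the stages overlap. Each difference had an exact two-sided permutation p of 0.0159, the smallest that 5 against 4 libraries can give, and 0.0159 after adjustment over the 3 chains. The shares sum to 100%, so the 3 tests are not independent. These shares were compared after the levels had been seen.

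In the mixed clusters the Fgb and Fga shares moved the same way, but the Fgg share overlapped between the stages. The Fgb share there was 45.98, 42.2, 46.3, 45.5 and 47.3% at E16.5 and 55.5, 59.1, 52.2 and 52.8% at P3. The Fga share was 20.5, 24.7, 20.1, 20.6 and 20.7% and then 15.1, 9.44, 14.3 and 12.9%. The Fgg share was 33.5, 33.1, 33.6, 33.9 and 32.0% at E16.5 and 29.4, 31.5, 33.5 and 34.3% in libraries A to D, with library D above every E16.5 library. With those clusters merged into the hepatocyte class, the Fgb difference was 13.8 percentage points, against 14.7 without them. Without libraries A and B, of unclear genotype, it was 12.1 points, and p was 0.0952, the smallest possible with 5 against 2 libraries.

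**Figure D2:**
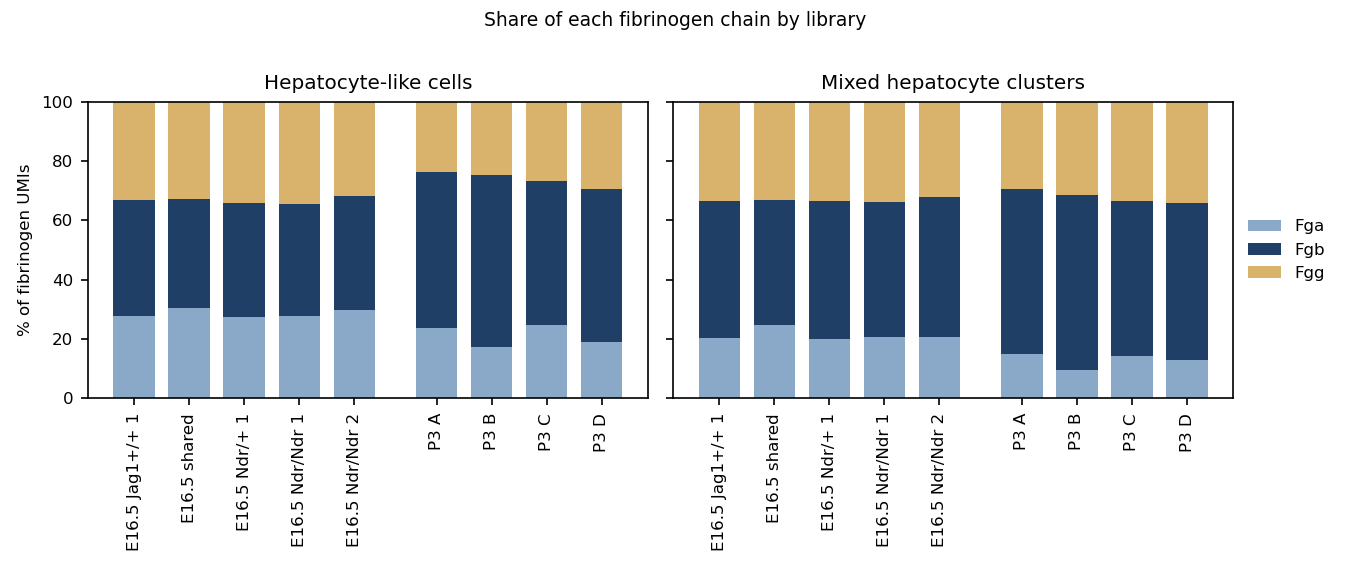
Stacked bars give the share of Fga, Fgb and Fgg in the fibrinogen UMIs of each library (%), for hepatocyte-like cells (left) and the mixed hepatocyte clusters (right). In hepatocyte-like cells the Fgb block takes 36.8 to 39.0% at E16.5 but 48.7 to 57.7% at P3.

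Among the protease genes of the 10, F9 had the largest change. F9 RNA was sparse, at 26.3, 26.1, 15.4, 24.9 and 20.9 CPM at E16.5 and 70.1, 56.0, 66.9 and 54.3 CPM at P3. Every P3 library was far above the highest E16.5 library, and the log2 change of F9 was 1.70 (SE 0.19, edgeR adjusted p = 5.69e-06). F9 values at P3 rested on 25 to 95 UMIs per library.

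F10, which encodes the protease at which the clotting routes meet, was at 329.5, 316, 282, 290.0 and 291 CPM at E16.5 and at 598, 750.5, 781 and 892 CPM at P3. The E16.5 libraries lay close together and the P3 libraries lay well above them. The log2 change of F10 was 1.57 (SE 0.15, edgeR adjusted p = 1.87e-06). F2, the gene of prothrombin, was at 913, 1061, 832, 788 and 926 CPM and then at 1167, 1199, 1348 and 1471 CPM. F2 rose the least of the 7 genes, by a log2 change of 0.76 (SE 0.16, edgeR adjusted p = 0.00132), and without overlap.

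Serpinc1, which encodes the inhibitor of these proteases, stood at 972, 1105, 894, 797 and 909 CPM at E16.5 and at 1632, 1857, 1719.9 and 2014 CPM at P3. All P3 libraries were above all E16.5 libraries (log2 change 1.19, SE 0.15, edgeR adjusted p = 2.31e-05). Plg, the fibrinolysis gene among the 10, was at 1019, 1380.0, 907, 1013 and 1159 CPM and then at 1890.1, 1471, 2279 and 1959 CPM. Library B was only just above the shared E16.5 library for Plg (log2 change 1.04, SE 0.18, edgeR adjusted p = 0.000381).

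Kng1, whose protein is a cofactor of contact activation and the source of bradykinin, was at 1724, 2096, 1316, 1747 and 1744 CPM at E16.5 and at 3974, 4391, 3614 and 4755 CPM at P3. The stages were far apart for Kng1 (log2 change 1.52, SE 0.16, edgeR adjusted p = 4.23e-06). Mice have a near-identical second gene, Kng2, and how reads were split between the pair was not given in the sources used here. Kng1 took 90.4 to 91.9% of the pair's UMIs at E16.5 and 90.7 to 95.3% at P3, and the sum of both was 1456 to 2289 CPM and 3793 to 5080 CPM, also without overlap.

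F8 was near the detection limit in hepatocyte-like cells, at 9.39, 4.78, 12.9, 4.60 and 4.82 CPM at E16.5 and 8.86, 20.0, 8.02 and 20.1 CPM at P3. These P3 values of F8 rest on 12, 10, 3 and 10 UMIs, and the ranges overlapped. Its log2 change in this class was 1.12 (SE 0.44, edgeR adjusted p = 0.0567). It passed when Jag1Ndr/+ replicate 1 at E16.5 was left out (1.46, edgeR adjusted p = 0.00979) or when library A was (1.44, adjusted p = 0.0425). Endothelial markers made up 0.0171 to 0.0463% of UMIs in this class at E16.5 and 0.0204 to 0.0436% at P3. Their part in these F8 values was not tested.

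**Figure D3:**
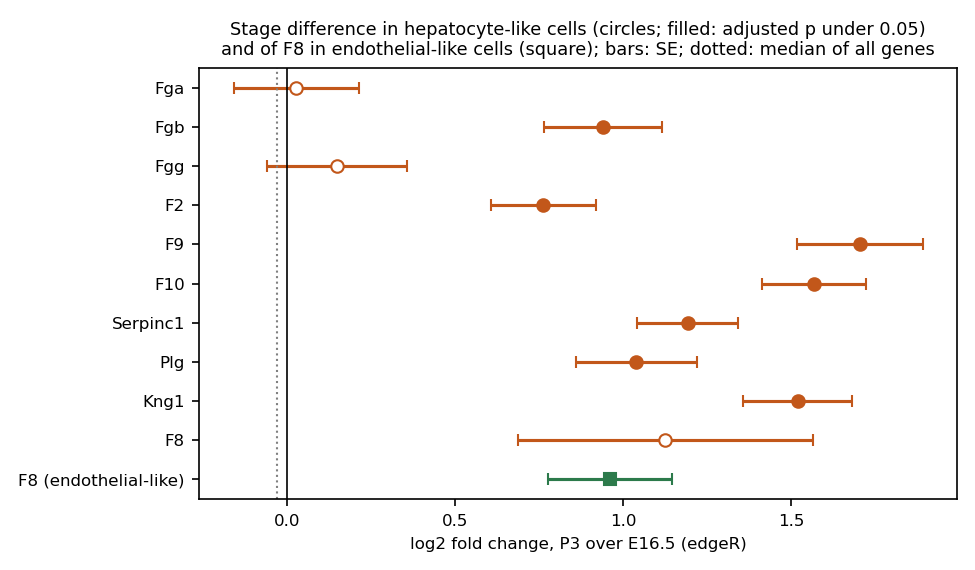
Fitted log2 fold change of P3 over E16.5 per gene with its SE; circles are hepatocyte-like cells (filled where the edgeR adjusted p was under 0.05), the square is F8 in endothelial-like cells and the dotted line is the median of all genes. Fga and Fgg sit near 0, and the 7 filled genes lie between 0.76 and 1.70.

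The rise of 3 genes depended on which clusters were called hepatocytes. With the mixed clusters merged in, a choice made after the clusters had been seen, 4 of the 10 genes passed: F9 (1.15), F10 (1.10), Serpinc1 (0.69) and Kng1 (0.97). In that fit 44.5% of all 10699 genes passed, so the members' count was near the share of all genes. Fgb (0.50, edgeR adjusted p = 0.104), F2 (0.30, adjusted p = 0.269) and Plg (0.49, adjusted p = 0.111) then missed the threshold, and Fga and Fgg had negative changes (-0.43 and -0.17). The mixed clusters carried 41.3 to 59.8% globin RNA at E16.5 and 35.1 to 44.4% at P3, and 1.86 to 3.28% and 1.89 to 3.92% of hepatocyte marker RNA. Neutrophil markers made up 0.103 to 0.309% of their UMIs at E16.5 against 3.00 to 6.25% at P3, and the part of this shift in the merged comparison was not tested. Without libraries A and B, and with the mixed clusters apart, 7 of the 10 genes passed, where 24% of 10617 genes did.

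From the wider list of 33 coagulation and fibrinolysis genes, 25 were tested in hepatocyte-like cells; 10 rose, 4 fell and 11 did not pass. Over all genes tested 19.1% rose and 18.2% fell. The median log2 change of the 25 was 0.34, against -0.03 over all genes. Hrg, the gene of histidine-rich glycoprotein, rose by 5.51 (SE 0.18, edgeR adjusted p = 2.24e-11). Others that rose were Fgl1, a fibrinogen-like gene (3.92), F7, the protease that starts clotting with tissue factor (2.30), and Vkorc1, the vitamin K recycling enzyme needed for F2, F9 and F10 to become functional (1.71). A2m, a broad protease inhibitor, fell by 4.75, F13a1, which cross-links fibrin, fell by 2.77, and Plaur, the urokinase receptor, fell by 1.78. In the same cells neutrophil markers made up 0.397 to 1.09% of UMIs at E16.5 and 0.0808 to 1.25% at P3, and macrophage markers 0.00452 to 0.0369% and 0.0114 to 0.0139%. Monocyte markers were at 0.00399 to 0.0132% before and 0.00134 to 0.00406% after birth, and mesenchymal markers, without overlap, at 0.0148 to 0.0456% and 0.00200 to 0.0139%. The part of these markers in the lower calls was not tested.

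F8 was the exception in its source. It was higher in endothelial-like than in hepatocyte-like cells, by a log2 difference of 4.31 at E16.5 (SE 0.21, edgeR adjusted p = 2.17e-09) and 4.13 at P3 (SE 0.22, edgeR adjusted p = 1.45e-10), with the library as a block. The other 9 genes were lower in endothelial-like cells at E16.5, with log2 differences of -5.43 to -6.32, that of F9 resting on 5 endothelial UMIs. At P3 the values of 8 genes were -7.31 to -8.02. F9 had 0 endothelial UMIs at P3 and was at least 9.20-fold lower there in each library, against a floor of 3 counts per library. The members other than F9 passed at both stages. Over all genes 65.3% of 10485 passed at E16.5 (32.5% higher, 32.8% lower) and 62.8% of 6844 at P3 (32.1% higher, 30.7% lower). With 5 endothelial UMIs at E16.5 and 0 at P3, F9 met the count filter through hepatocyte-like cells, so its calls are not counted. Clusters were formed without these 10 genes, but from genes that vary with them, so the calls mainly locate the RNA.

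In endothelial-like cells F8 was also higher at P3 than at E16.5. It stood at 172, 184, 135, 225 and 140.3 CPM in the E16.5 libraries and at 262, 405, 364 and 568 CPM in libraries A to D. No P3 library reached down to the E16.5 range, and the log2 change of F8 was 0.96 (SE 0.18, edgeR adjusted p = 0.00121), while 30.6% of 9848 genes passed in this class, 14.8% as higher and 15.8% as lower. As the fit uses TMM scaling, this differs from the ratio of mean CPM, which was 2.34 for P3 over E16.5. The change of F8 was above 0 and past the threshold when each library was left out in turn. Of 16 tested genes of the wider list, 1 rose, 3 fell and 12 did not pass. Vwf, whose protein carries factor VIII in plasma, rose by 1.91 (SE 0.35, edgeR adjusted p = 0.000886). A2m fell by 2.64, Serpinf2 fell by 1.35, and Plau, the gene of urokinase, fell by 0.96.

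Endothelial markers went in the same cells from 0.326 to 0.536% of UMIs at E16.5 to 0.659 to 0.876% at P3, and globin RNA made up 15.3 to 33.1% and 11.4 to 25.3%. Of the other cell types, markers of 4 were also higher at P3 without overlap. Mesenchymal markers were at 0.00250 to 0.00404% and then 0.0177 to 0.0645%, macrophage markers at 0.0574 to 0.0996% and 0.141 to 0.184%, neutrophil markers at 0.291 to 0.591% and 0.947 to 2.39%, and T and NK cell markers at 0.000610 to 0.00138% and 0.00354 to 0.0352%. The part of these shifts in the F8 result was not tested. Fga, Fgg, F2 and Plg were called lower in endothelial-like cells at P3 (-1.74, -1.48, -0.93 and -0.90), and F9 was too sparse to test. Of the 9 genes tested in this class, 1 rose, 4 fell and 4 did not pass. In all, 3 passed when Jag1Ndr/Ndr replicate 2 at E16.5, library A or library C was left out, and 3 without both A and B, where 18.6% of 10562 genes did. At E16.5 the members other than F8 stood there at medians of 1.29 to 3.41% of their hepatocyte-like level, and Alb at 1.60%. At P3 these medians were 0 to 0.932%, and 0.670% for Alb. The highest E16.5 median was that of F10, and F9 was at 0 at P3. The part of hepatocyte RNA in other droplets in these levels was not tested.

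The other cell classes ranked F8 in a different order at the 2 stages. At E16.5 it was 171 ± 36.4 CPM in endothelial-like, 32.2 ± 5.72 in mesenchymal-like and 7.29 ± 3.71 in hepatocyte-like cells (SD, n = 5), and none of these ranges overlapped. Mesenchymal-like cells had more F8 than hepatocyte-like cells in 5 of 5 libraries at E16.5, and in 1 of 4 at P3. The P3 values rest on 7, 4, 4 and 0 F8 UMIs in libraries A to D, and the islet hormone genes Ins2 and Ins1 led the P3 cluster ahead of Col3a1 and Dcn, while collagen genes led the E16.5 cluster. Whether the class holds the same cells at both stages was not tested. At P3 the means were 399.9 ± 127 CPM in endothelial-like, 14.2 ± 6.71 in hepatocyte-like and 6.17 ± 5.31 in mesenchymal-like cells (SD, n = 4), the last 2 overlapping. Endothelial-like cells held on average 63.2% of all F8 UMIs at E16.5 and 55.9% at P3. The unnamed P3 class held on average 11.7% of them, at a mean of 3.00 CPM.

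Among endothelial-like cells thinned to 2000 UMIs, a median over libraries of 24.9% had an F8 UMI at E16.5 and 45.2% at P3, against 0.133% and 0.623% of erythroid cells thinned likewise. Without thinning the endothelial-like shares were 53.6% and 65.4%. At P3, 47 endothelial-like cells were too shallow and were left out. The share of endothelial-like cells with an F8 UMI was far above that of erythroid cells at both stages. It was higher at P3 than at E16.5, as was the level. How much free RNA adds to these shares was not tested.

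**Figure D4:**
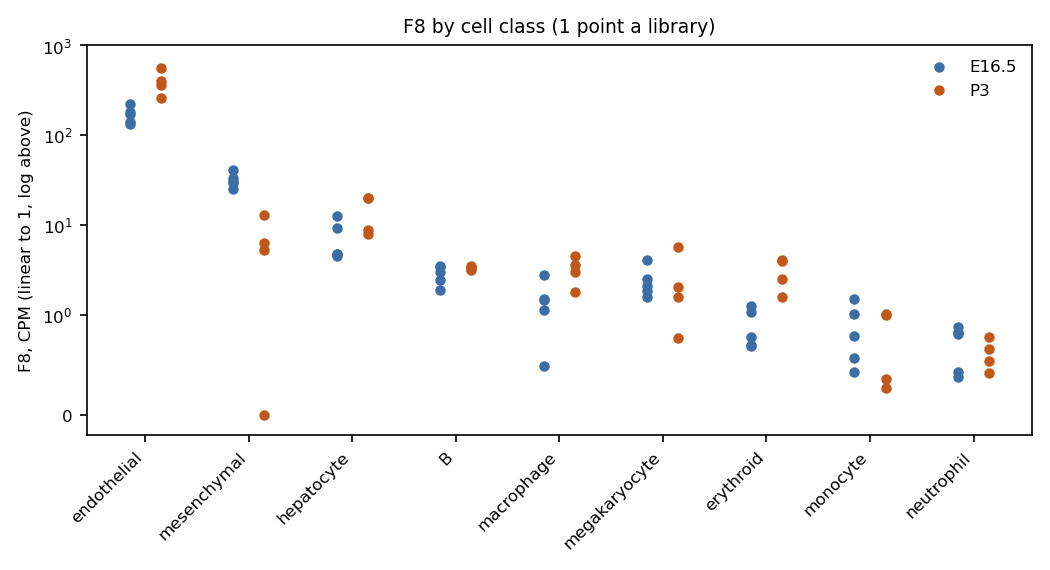
F8 level (CPM; linear up to 1 and logarithmic above) by cell class, 1 point per library, E16.5 in blue and P3 in orange. Endothelial-like cells are highest at both stages, and mesenchymal-like cells are second at E16.5 only.

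F10 RNA was also found in blood cells. After hepatocyte-like cells (302 ± 20.1 CPM at E16.5, 755 ± 121 at P3) the highest mean F10 level was in megakaryocyte-like cells, at 118 ± 47.8 CPM (SD, n = 5) and 391 ± 80.0 CPM (SD, n = 4). The values there were 108, 139.7, 94.5, 60.1 and 186 CPM at E16.5 and 321, 373, 506 and 366 CPM at P3. The stages did not overlap, and every megakaryocyte-like value lay below the hepatocyte-like values of its stage. In these cells megakaryocyte markers made up 1.07 to 2.33% of UMIs at E16.5 against 2.94 to 5.66% at P3, and globin 7.48 to 45.2% against 4.23 to 8.04%. The library with the lowest F10 level, Jag1Ndr/Ndr replicate 1 at 60.1 CPM, had the most globin and the lowest marker share. The part of these shifts in the F10 stage difference was not tested. Monocyte-like cells had 36.8 ± 7.69 and 90.7 ± 12.6 CPM, and neutrophil-like cells 18.4 ± 4.98 and 32.7 ± 4.25 CPM. Globin RNA went between the same stages from 10.6 to 19.3% of UMIs to 1.96 to 4.63% in monocyte-like cells, and from 12.1 to 24.2% to 2.47 to 5.51% in neutrophil-like cells. The classes' own markers went from 0.181 to 0.245% to 0.298 to 0.348%, and from 16.01 to 19.2% to 20.9 to 26.1%, both without overlap. Markers of other cell types in monocyte-like cells also differed between the stages. Dendritic markers were at 0.0654 to 0.129% of UMIs at E16.5 and 0.00864 to 0.0198% at P3, where dendritic-like cells formed a class of their own with 3.46 ± 3.00 CPM of F10 (SD, n = 4). Neutrophil markers in monocyte-like cells were at 0.833 to 1.14% and then 1.36 to 2.58%. In neutrophil-like cells macrophage markers went from 0.00322 to 0.00488% at E16.5 to 0.0138 to 0.0226% at P3. Dendritic markers there went from 0.000141 to 0.000378% to 0.00215 to 0.0127%, and T and NK markers from 0.00828 to 0.0190% to 0.0196 to 0.0245%. Hepatocyte markers there fell from 0.0931 to 0.140% to 0.0211 to 0.0376%. The part of these shifts in the F10 values was not tested. Each of these 3 blood classes was above erythroid, B and endothelial-like cells in 9 of 9 libraries. Basophil and mast cells were also above erythroid and B cells in 9 of 9 libraries, and above endothelial-like cells in 7 of 9. Their F10 level was 11.6 ± 3.20 CPM at E16.5 (SD, n = 5) and 16.05 ± 6.73 CPM at P3 (SD, n = 4). Its range overlapped that of neutrophil-like cells at E16.5 but not at P3.

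Set against the hepatocyte-like level of the same library, F10 in megakaryocyte-like cells was at a median of 33.5% at E16.5 (range 20.7 to 63.9%) and 51.7% at P3 (range 41.0 to 64.8%). Alb, used to gauge hepatocyte RNA in other droplets, stood there at 1.37% and 0.0791%. The 8 members other than F8 and F10 were at medians between 0 and 2.02% at E16.5 and between 0 and 0.216% at P3, F9 being at 0 counts in this class at both stages. In monocyte-like cells F10 was at 11.7% and 12.7% and Alb at 0.661% and 0.133%; in neutrophil-like cells F10 was at 6.04% and 4.29%. Hepatocyte markers made up 0.0855 to 0.519% of UMIs in megakaryocyte-like cells at E16.5 but 0.0127 to 0.0236% at P3.

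In cells thinned to 2000 UMIs, an F10 UMI was found in a median of 10.0% of megakaryocyte-like cells at E16.5 and 27.4% at P3. The shares were 7.67% and 16.9% in monocyte-like cells, 2.91% and 4.26% in neutrophil-like cells, and 1.13% and 0.571% in erythroid cells. Unthinned, they were 25.4% and 51.7% in megakaryocyte-like, and 2.77% and 1.38% in erythroid cells. Of all F10 UMIs at P3, hepatocyte-like cells held on average 18.2%, megakaryocyte-like cells 25.2%, monocyte-like cells 18.1% and neutrophil-like cells 26.1%. At E16.5 hepatocyte-like cells held 31.2 to 42.7% of them per library, and the averages of the 3 blood classes were 8.54, 10.7 and 14.8%. Erythroid cells held on average 15.5% of F10 UMIs at E16.5 and 3.39% at P3. The mixed hepatocyte clusters held 7.60 and 3.64%, and basophil and mast cells 1.88 and 0.366%. The unnamed P3 class held 1.94%. For comparison, hepatocyte-like cells held on average 58.6% of Fgb UMIs at P3 and megakaryocyte-like cells 0.232%. These averages depend on which cells were recovered.

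**Figure D5:**
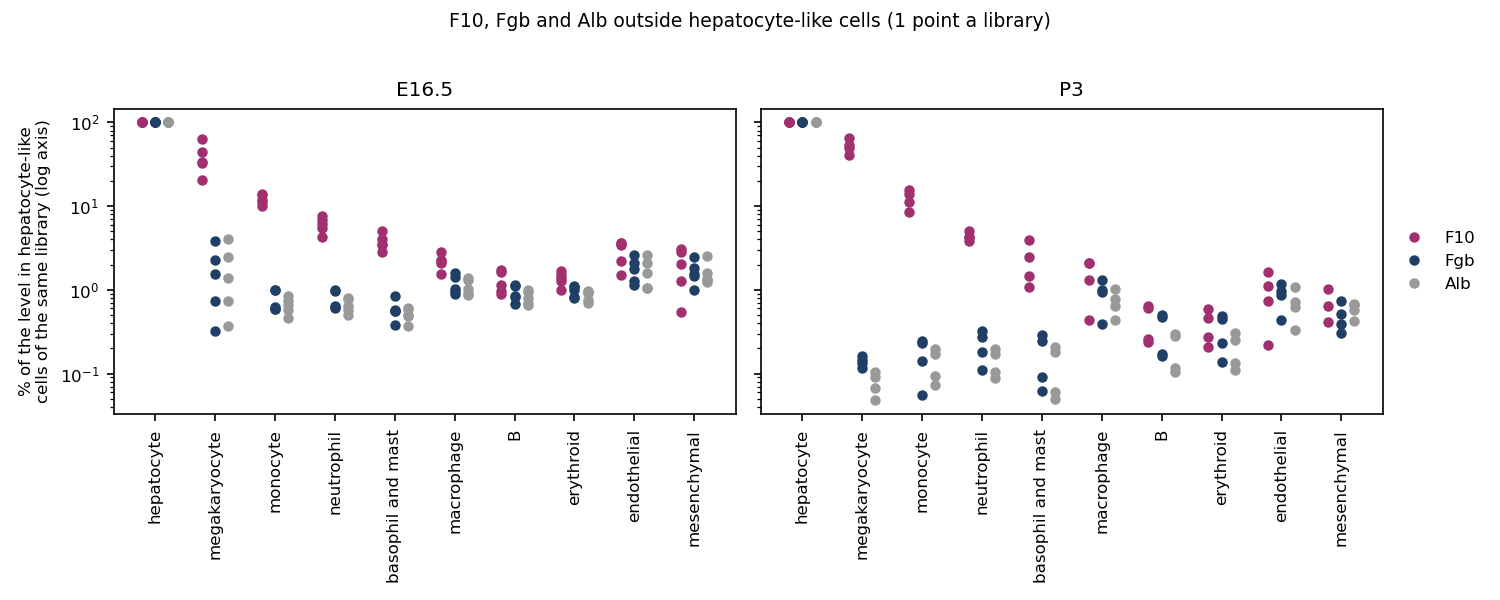
Level of F10, Fgb and Alb in the cell classes shown, as a percentage of that in hepatocyte-like cells of the same library (log axis). There is 1 point per library, and T and NK cells are among the classes left out. F10 lies above Fgb and Alb in every library in megakaryocyte-like, monocyte-like and neutrophil-like cells; F10 in mesenchymal-like cells of library D was at 0 and is not drawn.

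The gene whose pattern over cell classes was most like that of F10 was F5, which encodes its cofactor. The Pearson correlation of log2(CPM + 1) was 0.954 over 12 classes at E16.5 and 0.945 over 14 at P3, while the next gene reached 0.891 (Fdps) and 0.892 (Fitm1). The 14 P3 classes include the unnamed one. F5 was at 125 ± 19.2 CPM in hepatocyte-like and 115 ± 40.9 CPM in megakaryocyte-like cells at E16.5 (SD, n = 5), and at 223 ± 67.4 and 402 ± 100.3 CPM at P3 (SD, n = 4). It was higher in megakaryocyte-like than in hepatocyte-like cells in 1 of 5 libraries at E16.5 and in 4 of 4 at P3. The genes most like F8 were Bcl6b, Myzap and Fam167b at E16.5 (0.991, 0.988 and 0.987) and Pcdh17, Mcam and Fam167b at P3 (0.973, 0.972 and 0.963). For the remaining 8 members the correlations were 0.992 or above, for instance with Cpb2 and Alb for Fga at E16.5, Apoh for Kng1 and Fgb at P3, and Serpinf2 for Plg. Classes share libraries and free RNA, so these correlations are descriptions.

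Within hepatocyte-like cells thinned to 5000 UMIs, Fgb and Fgg had the highest median correlation over libraries at both stages. Their Spearman correlation over cells had a median over libraries of 0.778 at E16.5 (range 0.765 to 0.876, 651 cells) and 0.556 at P3 (range 0.438 to 0.608, 179 cells). The P3 range overlapped those of other pairs, such as Serpinc1 with Kng1 (median 0.511, range 0.380 to 0.714). Fga with Fgb was at 0.663 at E16.5, Fgb with Kng1 at 0.718, and Fga with Serpinc1 at 0.338. Pairs with F9 lay between 0.0467 and 0.176 at E16.5, where its counts per cell were mostly 0. The cells of a library share its depth and free RNA, and no test was made.

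The Jag1 genotype was compared at E16.5 only, as 2 Jag1Ndr/Ndr libraries against the 3 libraries without that label. None of the 10 genes passed in hepatocyte-like cells (edgeR adjusted p = 1.00 for each). Over all 10775 genes tested 0 passed (0% called), with 206 at an unadjusted p under 0.05, and DESeq2 called 3. The log2 differences of 9 genes lay between -0.18 for Serpinc1 (SE 0.18) and 0.07 for Fga (SE 0.20). F8 was at -0.88 (SE 0.46), with 4.60 and 4.82 CPM in the homozygous libraries and 9.39, 4.78 and 12.9 CPM in the others. Endothelial markers made up 0.0219 and 0.0214% of hepatocyte-like UMIs in the homozygous libraries and 0.0370, 0.0171 and 0.0463% in the others. Their part in the F8 difference was not tested. In this class the homozygous and other ranges of all 10 genes overlapped.

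For F8 in endothelial-like cells, the homozygous libraries had 225 and 140.3 CPM and the others 172, 184 and 135 CPM (log2 difference 0.18, SE 0.23). The homozygous libraries were the highest and the second lowest. Serpinc1 was the 1 member whose ranges did not overlap in this class, at 9.88 and 11.97 CPM against 22.6, 15.4 and 18.7 CPM (log2 difference -0.78, SE 0.31, edgeR unadjusted p = 0.0248, adjusted p = 1.00), on 23 to 48 UMIs per library. How many of all genes had no overlap was not counted. Hepatocyte markers made up 0.167 and 0.295% of endothelial-like UMIs in the homozygous libraries and 0.440, 0.226 and 0.352% in the others. Their part in the Serpinc1 values was not tested. Of 10195 genes tested in endothelial-like cells 0 passed (0% called) with edgeR. Against that, 212 were at an unadjusted p under 0.05 and 1 was called by DESeq2. Counts were simulated from the mean levels and totals of these libraries, but with the same fixed spread for all genes. In hepatocyte-like cells the test then recovered 31% of genes changed by 2-fold and 91% of those changed by 4-fold. These shares cover genes of many levels, not the 10 genes in particular, and smaller differences could be missed. At P3 library C (Jag1Ndr/Ndr) and library D (Jag1Ndr/+) are 1 library each and allow no test. Of the fibrinogen genes Fgg differed the most between them in ratio, with 2883 CPM in C and 4101 CPM in D, and Fga was nearly equal, with 2664 and 2659 CPM.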

How the data were processed

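The deposited matrices hold raw UMI counts for each gene and barcode. Per the file headers, 10x software 3.0.2 made those of P3 (22597 genes) and 3.1.0 those of E16.5 (31053 genes), while the submitters' processing notes name Cell Ranger 2.1.1, R 4.1.2, Seurat and mm10. The aligner settings are not given in the sources used here. The 10 genes and the lists were chosen with earlier results of these data known.

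Barcodes were kept from 1000 UMIs up, unless mitochondrial RNA exceeded 15% (scanpy 1.11.5, numpy 2.4.6). Library C is Jag1Ndr/Ndr replicate 1 at P3 without the barcodes of library A. Scrublet marked 4.11 to 13.4% of barcodes per library as doublets by its automatic threshold, and these were removed. Cells of each stage were scaled to 10000 counts and clustered on 2000 variable genes, 30 principal components and 15 neighbours (Leiden resolution 1, igraph 0.11.9), with the 10 genes and 33 other coagulation genes kept out. Clusters were named from marker lists, so names may differ from the authors' own. A hepatocyte-named cluster counted as hepatocyte-like with at least 0.5 of the Alb CPM of the highest such cluster, and as mixed otherwise, a rule set after the clusters had been seen.

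Raw counts were summed per library and class over the 22519 genes common to both stages and tested with edgeR 4.0.16 (R 4.3.3; TMM, filterByExpr, quasi-likelihood test, Benjamini-Hochberg, threshold 0.05), with the library as a block between classes. The tests were checked on simulated data. Genes named were the 10, up to 8 called genes of the list of 33 with the largest change, and the 3 genes most like each member over classes; 1 gene that this rule names is not reported here. Counting intervals are exact Poisson at 95% and cover counting error only. Permutation tests used scipy 1.17.1. Alternatives were DESeq2 1.42.0 with its size factors, no count filter, doublets kept, a minimum of 2000 UMIs, Leiden resolution 0.5, globin genes left out, a replicate block, each library left out, thinning to 1000 UMIs, and, added after the data had been seen, the mixed clusters merged in and libraries A and B left out. P3 Jag1Ndr/+ replicate 2 and Jag1Ndr/Ndr replicate 2 were left out as their barcodes lay in other libraries. Sequences are from RefSeq (GRCm38.p6).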

Additional observations from a re-analysis of the deposited data

How the results depend on the processing

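Calls of the 10 genes between stages in hepatocyte-like cells held under DESeq2, no count filter, doublets kept, a minimum of 2000 UMIs, Leiden resolution 0.5, globin genes left out and each library left out, apart from F8. With the mixed clusters merged in, 4 genes passed instead of 7, and Fga (-0.43) and Fgg (-0.17) turned negative. Fga, which missed the threshold throughout, was also negative with DESeq2 (-0.0059), no filter (-0.057), Leiden resolution 0.5 (-0.019) and the replicate block (-0.0010). It ranged from -0.094 to 0.137 with 1 library left out, and Fgg from -0.097 to 0.299. The cause of these sign changes was not tested.

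In endothelial-like cells 3 of the 10 genes passed without libraries A and B (1960 genes in all, against 3014), and 3 to 6 with 1 library left out, 3 without E16.5 Jag1Ndr/Ndr replicate 2, library A or library C. F8 passed in all of these fits. Without A and B the fibrinogen shares moved by -6.85 (Fga), 12.14 (Fgb) and -5.29 (Fgg) points, each with p = 0.0952, the smallest exact permutation p that 5 against 2 libraries can give. With 1 library left out they ran from -8.59 to -6.20, 12.98 to 15.99 and -8.33 to -6.38.

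For genotype at E16.5, calls over all genes in hepatocyte-like cells numbered 3 with DESeq2, 8 without a filter and 0 to 3 with 1 library left out. In endothelial-like cells they numbered 1 with DESeq2, 49 without a filter, 1 at Leiden resolution 0.5 and 0 to 20 with 1 library left out. Under these settings none of the 10 genes passed in hepatocyte-like cells, nor did F8 in endothelial-like cells. With 1 library left out, log2 differences in hepatocyte-like cells ran from -0.145 to 0.235 (Plg), -0.268 to 0.090 (F2), -0.082 to 0.183 (Fga), -0.077 to 0.192 (Fgb), -0.070 to 0.213 (Fgg), -0.162 to 0.217 (F9), -0.092 to 0.260 (Kng1) and -0.112 to 0.022 (F10). F10 was at 0.012 with the mixed clusters, and F8 in endothelial-like cells ran from -0.248 to 0.519.

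After removal of group means, E16.5 libraries with equal replicate numbers had correlations of 0.172, -0.069 and 0.096 in hepatocyte-like cells. With so few libraries per group these values are tied to each other, so they cannot show whether libraries were paired. With the replicate block the stage test called 7 of the 10 genes in hepatocyte-like and 5 in endothelial-like cells, as without it, the genotype tests called 0 genes, and Plg turned to -0.044. Depth limits F8 and F9 the most, and library B has only 23 hepatocyte-like cells.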
